A study of Drosophila melanogaster with 24 samples.

Results

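The genes described here encode subunits of respiratory complex III, complex IV, and ATP synthase. They were the 40 genes, of 17611 in the count table of the series, whose FlyBase symbol begins with *UQCR-*, with *COX* and a digit, or with *ATPsyn*. The symbol chose them, and 38 of the 40 had any count. There were 9 complex III genes, 16 complex IV genes, and 15 ATP synthase genes. By the ending of the symbol, 25 were ubiquitous copies and 13 were testis copies (ending in L), while *COX6AL2* and *COX7AL2* end in L and a digit and were kept apart. No gene of the rule was a complex IV assembly factor, since none had a *COX* number of 10 or more. Poly(A) RNA of whole adult w1118 flies was sequenced in 18 libraries, 3 for each of 6 groups, with equal numbers of males and females in each bottle. Flies with rotenone for 7 days followed by FMT from control flies (PWFC), rotenone-fed flies without FMT (PWOFC), control flies with FMT from rotenone-fed flies (CWFP), and control flies without FMT (CWOFP) were harvested on day 14, 21 days after eclosion. PD flies, fed rotenone, and CTRL flies, fed DMSO, were harvested on day 7, 14 days after eclosion. FMT is fecal microbiota transplantation, here the gut content of donor flies fed for the last 7 days, and each inoculum pooled donor flies. Rotenone, an inhibitor of complex I, models Parkinson's disease in the whole animal rather than in one cell type. Protocol labels name 250 µM rotenone for every group, also those fed DMSO. PWOFC and PD differ in age and in the 7 days after rotenone was withdrawn, and that pair alone cannot tell these apart. The labels do not say whether the 3 libraries of a group came from separate bottles, so the p-values measure the spread between libraries, which may be technical.

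In the inner mitochondrial membrane, complex III passes electrons from ubiquinol to cytochrome c and complex IV passes them from cytochrome c to oxygen, and the proton gradient they build drives ATP synthase. Each complex combines subunits made in the mitochondrion with a larger number encoded in the nucleus, and the genes described here are nuclear. Many of these nuclear genes have a second copy in *Drosophila* that is transcribed mainly in testis, where sperm development rebuilds the mitochondria into a giant derivative along the tail.

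Libraries held between 17920498 and 29165130 counts, and levels are given as CPM, edgeR's library-size-scaled counts with TMM factors over the 18 libraries. Whole flies hold many cell types, and the marker lists varied widely between libraries. Summed testis markers, 21 of 23 listed genes matched and none at 0 in all libraries, were 159 to 892 CPM in PWFC, 343 to 648 CPM in PWOFC, 55.6 to 1657 CPM in CWFP, 514 to 969.9 CPM in CWOFP, 1323 to 1869.7 CPM in PD, and 767 to 1097 CPM in CTRL. CWFP replicate 1 stood apart from every other library, with 55.6 CPM of testis markers. It was also lowest in accessory gland markers, at 47.4 CPM, against 322 CPM in the next library, PWFC replicate 3. Its ovary germline markers summed to 4261 CPM. Over the 18 libraries the sums were 47.4 to 1733 CPM for accessory gland, 1199 to 4434 CPM for ovary germline, 1317 to 18869.9 CPM for eggshell, 5275 to 30498 CPM for yolk, 3052 to 10631 CPM for muscle, 56.5 to 369 CPM for neuron, and 2914 to 15881 CPM for gut. In whole flies, fewer cells of a type and less RNA per cell cannot be told apart.

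Of the 40 genes, 38 had counts and all 38 passed the filter on low counts in every comparison. The 24 ubiquitous members with counts had mean levels from 23.2 CPM (*UQCR-6.4*) to 2022 CPM (*ATPsynC*), with a median of 279 CPM. The 12 testis copies with counts had mean levels from 0.925 CPM (*ATPsynepsilonL*) to 23.9 CPM (*COX4L*), with a median of 4.93 CPM. Ubiquitous members were steady between libraries, since the highest library exceeded the lowest by 1.52-fold to 3.35-fold with a median of 1.98-fold. For the testis copies this span was 7.52-fold to 64.4-fold with a median of 27.2-fold. The lowest library was CWFP replicate 1 for 11 of the 12 testis copies and for none of the ubiquitous members. In the plot of the members by library, the block of testis copies shows wide contrasts where the block of ubiquitous members is pale.

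**Figure D1:**
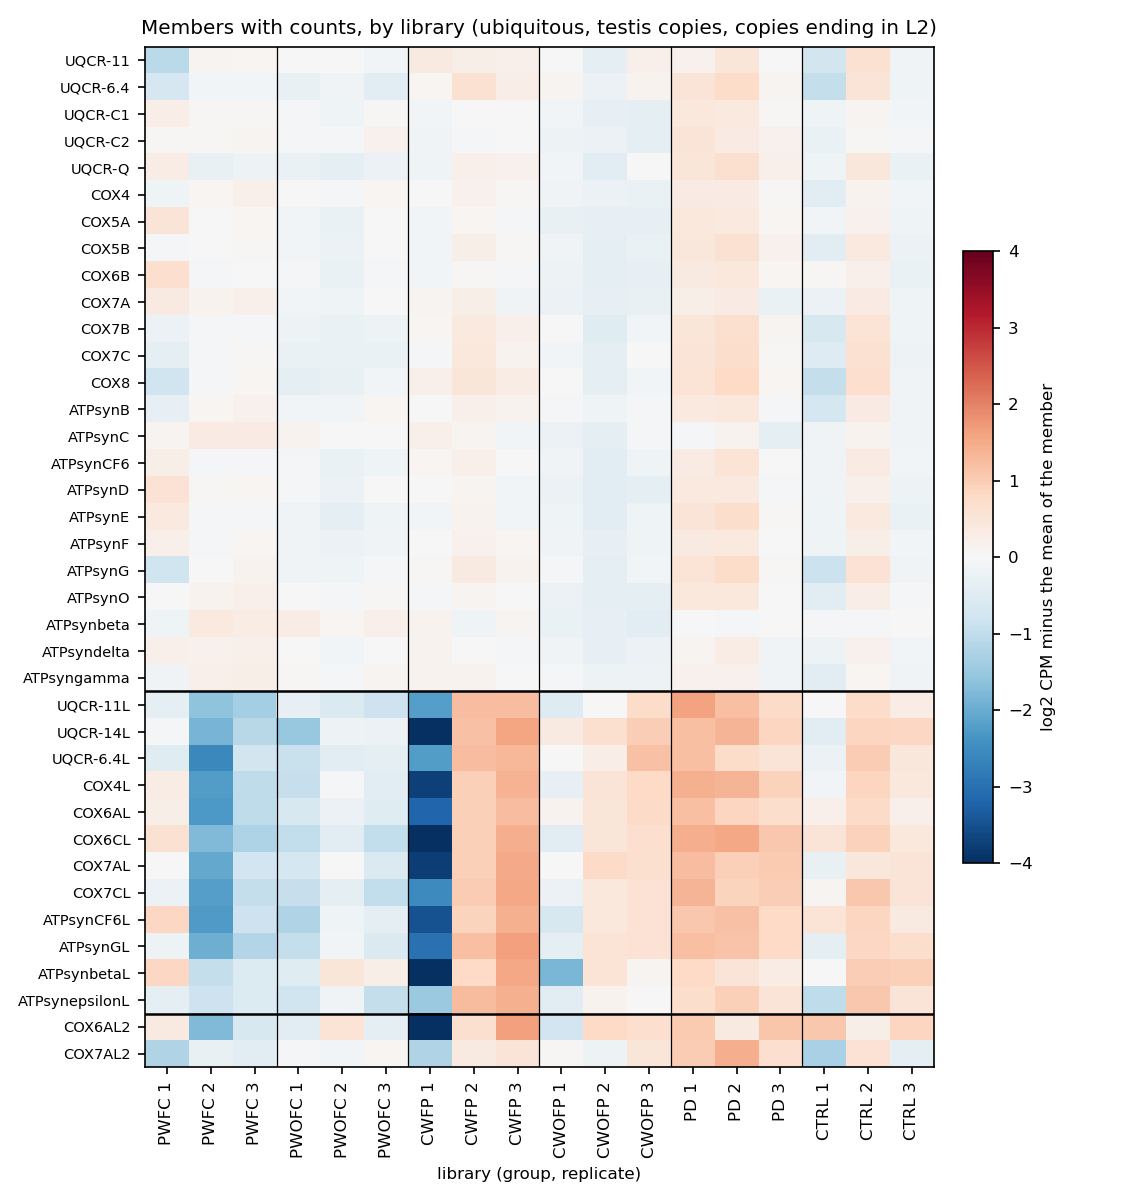
Level of each of the 38 members with counts (rows) in each of 18 libraries (columns, 3 per group), as log2 CPM minus the mean of that member over the libraries; red is higher and blue lower, and colours stop at -4 and 4. Testis copies (middle block) are darkest blue in CWFP replicate 1 and blue in PWFC replicate 2, and ubiquitous members (upper block) vary by 3.35-fold at most between the highest and the lowest library.

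Among the complex III genes, *UQCR-C1* and *UQCR-C2*, the core proteins that face the matrix, averaged 400.1 and 283 CPM per kb of exonic length. *UQCR-Q*, a small membrane subunit, averaged 143 CPM per kb, and the small subunits *UQCR-6.4* and *UQCR-11* averaged 41.3 and 39.8 CPM per kb. Both low values are uncertain, since 40.5% of the exonic bases of *UQCR-6.4* lie in exons of *POSH* on the opposite strand, and *UQCR-11* has 1613 exonic bases but a median transcript of 506 bases.

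The complex IV members surround a catalytic core made in the mitochondrion. Per length, *COX5A* (467 CPM per kb), *COX7A* (379.7 CPM per kb), *COX6B* (371 CPM per kb), and *COX4* (307 CPM per kb) came before *COX7B* (278 CPM per kb), *COX5B* (268 CPM per kb), *COX8* (222 CPM per kb), and *COX7C* (131 CPM per kb). For the last of these, 15.7% of the exonic bases lie in exons of *oys* on the opposite strand. The order depends on the length used. Per kb of the median transcript *COX4* (469 CPM) followed *COX5A* (555 CPM) and came before *COX7A* (446 CPM) and *COX6B* (423 CPM), and *COX5B* (301 CPM) came before *COX7B* (278 CPM).

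In ATP synthase, *ATPsynC*, which forms the membrane ring, averaged 1082 CPM per kb and *ATPsynbeta*, the catalytic subunit of the soluble head, averaged 732 CPM per kb, the highest levels per length among all members. The peripheral stalk subunits *ATPsynB*, *ATPsynD*, *ATPsynO*, and *ATPsynCF6* averaged 374, 311, 382, and 258 CPM per kb. The small membrane subunits *ATPsynF*, *ATPsynE*, and *ATPsynG* averaged 493, 297, and 218 CPM per kb. The central stalk subunits *ATPsyngamma* and *ATPsyndelta* averaged 279 and 61.2 CPM per kb. The value of *ATPsyndelta* is uncertain, since it has 3817 exonic bases but a median transcript of 978 bases. Of its exonic bases, 35.6% are shared with *CG2962* on the opposite strand. Per kb of the median transcript *ATPsyngamma* averaged 350 CPM and *ATPsyndelta* 239 CPM.

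*UQCR-14*, a ubiquitous complex III gene (X:16286288-16286988 in dm6, plus strand), and *COX5BL*, a testis copy of complex IV (2L:6559431-6560133 in dm6, plus strand), were at 0 counts in all 18 libraries. All 523 exonic bases of *UQCR-14* lie in exons of *CG32576* on the opposite strand, which had 368 to 773 counts per library. All 647 exonic bases of *COX5BL* lie in exons of *Trmt6*, also on the opposite strand, with 492 to 884 counts per library. Over the whole table, 562 genes had all their exonic bases inside other genes, and 560 of these (99.6%) were at 0 in every library. Among the 12049 genes that shared no exonic base, 577 (4.79%) were at 0 in every library. Both members thus belong to a class that the table holds at 0 almost throughout, and their levels are not known from it.

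Most testis copies have short transcripts, under 1000 bases for 12 of 13. Of the 13, 4 have a single exon, against 1 of the 25 ubiquitous members, and none lies on X, against 3 of the 25. Of these copies, 10 carry the name of a ubiquitous member. In 4 of these 10 pairs both copies lie on one chromosome arm. *COX5B* and *COX5BL* are 122 bases apart on 2L, *COX7C* and *COX7CL* are 281 bases apart on 2R, and *COX7A* and *COX7AL* are 2625 bases apart on 3R. For *COX6AL*, *COX6CL*, and *ATPsynepsilonL* no ubiquitous member has that name, and their counterparts *levy*, *cype*, and *sun* carry symbols outside the rule. The methods do not state how reads that match several places were counted, so reads shared by similar copies are uncertain.

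*COX4L* (2R:5353994-5354723 in dm6, plus strand), the most abundant testis copy, is the testis copy of a nuclear complex IV subunit. *COX4L* had 22.1, 3.80, and 8.86 CPM in the PWFC libraries, 9.41, 17.2, and 13.0 CPM in PWOFC, 1.34, 34.5, and 47.1 CPM in CWFP, 14.3, 25.9, and 31.2 CPM in CWOFP, 48.1, 46.1, and 33.8 CPM in PD, and 16.7, 32.7, and 24.3 CPM in CTRL. It was lowest in CWFP replicate 1 and highest in PD replicate 1. *COX7AL* had 8.11, 1.96, and 4.77 CPM in the PWFC libraries, 5.03, 8.27, and 5.46 CPM in PWOFC, 0.603, 15.8, and 23.3 CPM in CWFP, 8.24, 13.8, and 12.8 CPM in CWOFP, 19.1, 15.9, and 16.8 CPM in PD, and 6.69, 11.1, and 11.6 CPM in CTRL. *COX6CL* had 9.59, 1.85, and 2.68 CPM in the PWFC libraries, 3.19, 4.67, and 3.18 CPM in PWOFC, 0.325, 12.3, and 17.4 CPM in CWFP, 4.67, 8.84, and 9.97 CPM in CWOFP, 17.2, 18.6, and 13.3 CPM in PD, and 8.93, 12.0, and 8.52 CPM in CTRL. *COX4L*, *COX7AL*, and *COX6CL* had every PD library above every CTRL library, where 20.7% of all genes tested did so. *COX6AL* had 5.98, 1.03, and 2.48 CPM in the PWFC libraries, 3.24, 4.31, and 3.62 CPM in PWOFC, 0.556, 9.68, and 11.9 CPM in CWFP, 5.54, 7.05, and 8.62 CPM in CWOFP, 11.7, 9.08, and 8.17 CPM in PD, and 5.81, 8.64, and 5.84 CPM in CTRL. *COX7CL* had 2.72, 0.707, and 1.66 CPM in the PWFC libraries, 1.69, 2.48, and 1.61 CPM in PWOFC, 0.556, 6.46, and 9.31 CPM in CWFP, 2.75, 4.36, and 4.83 CPM in CWOFP, 8.20, 5.93, and 6.38 CPM in PD, and 3.46, 6.79, and 4.56 CPM in CTRL. For *COX6AL* and *COX7CL* the PD and CTRL libraries overlapped, while every PWOFC library lay below every PD library, where 36.9% of genes did so.

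Of the ATP synthase copies, *ATPsynCF6L* and *ATPsynGL* carry the names of a peripheral stalk and a membrane subunit. *ATPsynCF6L* had 8.21, 0.978, and 2.63 CPM in the PWFC libraries, 2.04, 4.16, and 3.62 CPM in PWOFC, 0.417, 8.62, and 12.4 CPM in CWFP, 2.96, 6.24, and 7.01 CPM in CWOFP, 9.87, 10.5, and 8.05 CPM in PD, and 6.81, 8.54, and 6.01 CPM in CTRL. *ATPsynGL* had 3.51, 1.03, and 1.80 CPM in the PWFC libraries, 2.09, 3.75, and 2.68 CPM in PWOFC, 0.510, 9.36, and 12.7 CPM in CWFP, 3.18, 5.85, and 6.05 CPM in CWOFP, 9.32, 8.88, and 7.09 CPM in PD, and 3.15, 7.17, and 6.62 CPM in CTRL. Both were lowest in CWFP replicate 1 and highest in CWFP replicate 3. *ATPsynbetaL* is the copy of the catalytic subunit and *ATPsynepsilonL* that of a small subunit of the central stalk. *ATPsynbetaL* had 6.43, 1.85, and 2.48 CPM in the PWFC libraries, 2.54, 5.02, and 4.25 CPM in PWOFC, 0.185, 6.27, and 10.4 CPM in CWFP, 1.0, 5.21, and 3.83 CPM in CWOFP, 6.19, 5.10, and 4.38 CPM in PD, and 3.65, 7.14, and 6.96 CPM in CTRL. *ATPsynepsilonL* had 0.593, 0.435, and 0.535 CPM in the PWFC libraries, 0.448, 0.710, and 0.403 CPM in PWOFC, 0.278, 1.89, and 2.09 CPM in CWFP, 0.567, 0.855, and 0.784 CPM in CWOFP, 1.28, 1.51, and 1.13 CPM in PD, and 0.385, 1.64, and 1.11 CPM in CTRL. These were the only testis copies whose highest group mean was not that of PD, since *ATPsynbetaL* averaged 5.92 ± 1.96 CPM in CTRL and *ATPsynepsilonL* 1.42 ± 0.995 CPM in CWFP (SD, n = 3).

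The complex III copies were scarce. *UQCR-14L* had 1.88, 0.544, and 0.925 CPM in the PWFC libraries, 0.697, 1.72, and 1.70 CPM in PWOFC, 0.0927, 4.43, and 5.97 CPM in CWFP, 2.53, 3.08, and 3.92 CPM in CWOFP, 4.53, 5.06, and 3.63 CPM in PD, and 1.46, 3.57, and 3.51 CPM in CTRL. *UQCR-11L* had 1.14, 0.489, and 0.584 CPM in the PWFC libraries, 1.20, 1.01, and 0.850 CPM in PWOFC, 0.325, 3.55, and 3.56 CPM in CWFP, 1.05, 1.5, and 2.48 CPM in CWOFP, 4.53, 3.42, and 2.54 CPM in PD, and 1.5, 2.52, and 1.84 CPM in CTRL. *UQCR-6.4L* had 0.939, 0.217, and 0.779 CPM in the PWFC libraries, 0.697, 0.964, and 0.984 CPM in PWOFC, 0.278, 3.09, and 3.30 CPM in CWFP, 1.31, 1.58, and 2.92 CPM in CWOFP, 3.02, 2.19, and 1.88 CPM in PD, and 1.12, 2.62, and 1.78 CPM in CTRL. *UQCR-14L* is the only measured copy of its pair, since *UQCR-14* has no counts. The copies that end in L and a digit differed from each other. *COX6AL2* had 7.17, 1.63, and 3.60 CPM in the PWFC libraries, 4.08, 8.11, and 4.34 CPM in PWOFC, 0.139, 8.72, and 17.5 CPM in CWFP, 3.27, 9.70, and 8.84 CPM in CWOFP, 11.5, 7.21, and 12.1 CPM in PD, and 11.7, 6.51, and 10.02 CPM in CTRL. *COX7AL2* had 2.72, 5.05, and 4.58 CPM in the PWFC libraries, 5.93, 5.83, and 6.53 CPM in PWOFC, 2.74, 8.02, and 8.86 CPM in CWFP, 6.45, 5.38, and 8.71 CPM in CWOFP, 12.7, 17.1, and 9.96 CPM in PD, and 2.54, 9.38, and 4.84 CPM in CTRL. In CWFP replicate 1 *COX6AL2* was at its lowest and *COX7AL2* was close to its levels in PWFC replicate 1 and CTRL replicate 1, and 67% of the exonic bases of *COX6AL2* lie in exons of *Ir75d* and *Prp6*.

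Summed over the testis copies, the level was 71.2, 14.9, and 30.2 CPM in PWFC, 32.3, 54.3, and 41.4 CPM in PWOFC, 5.47, 116, and 159 CPM in CWFP, 48.1, 84.2, and 94.4 CPM in CWOFP, 143, 132, and 107 CPM in PD, and 59.6, 104, and 82.6 CPM in CTRL. These sums spanned 29.1-fold and those of the testis markers 33.7-fold, and without CWFP replicate 1 they spanned 10.7-fold and 11.8-fold. As a share of the summed testis markers, the copies came to between 7.65% (PD replicate 1) and 9.97% (CWFP replicate 2), a span of 1.3-fold. The share kept this range in CWFP replicate 1, at 9.85%. In the same terms *COX4L*, the steadiest single copy, ranged from 2.17% to 3.22%, a span of 1.48-fold. Other testis copies varied more, up to 5.95-fold for *ATPsynbetaL* and 9.98-fold for the scarce *ATPsynepsilonL* (5.45-fold without CWFP replicate 1). *COX7AL2* ranged from 0.305% to 4.92%. These shares are descriptions over libraries, with no test. The plot of summed levels shows the same order of libraries for the copies and the markers in CWFP, while the ubiquitous sum is flat there.

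**Figure D2:**
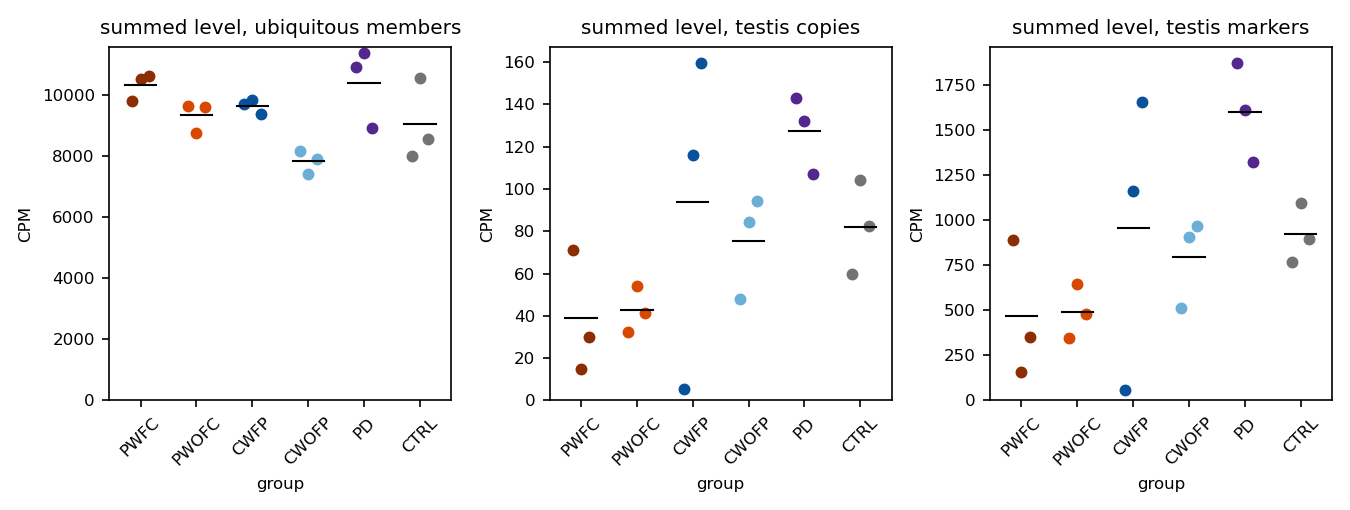
Summed CPM per library of the ubiquitous members (left), the testis copies (middle), and the testis markers (right) in the 6 groups; points are libraries and lines are group means (n = 3). The testis copies range from 5.47 to 159 CPM, with both ends in CWFP.

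Ubiquitous copies exceeded their testis copies in every library for all 8 pairs with counts. Per kb of exonic length, the median over 18 libraries of the ubiquitous level over the testis level was 300.1-fold (151 to 8671) for *ATPsynbeta* over *ATPsynbetaL* and 23.3-fold (13.0 to 407) for *ATPsynCF6* over *ATPsynCF6L*, with the range in parentheses. It was 23.0-fold (8.62 to 391) for *COX7A* over *COX7AL* and 20.9-fold (10.03 to 229.7) for *ATPsynG* over *ATPsynGL*. For *COX7C* over *COX7CL* it was 13.0-fold (6.20 to 90.4), and for *UQCR-6.4* over *UQCR-6.4L* it was 10.7-fold (6.21 to 73.5). For *UQCR-11* over *UQCR-11L* it was 8.72-fold (4.26 to 67.6) and for *COX4* over *COX4L* 8.69-fold (4.91 to 164). The order of the pairs depends on the length used, since per kb of the median transcript the median ratio was 26.0-fold for the *UQCR-11* pair, 13.5-fold for the *UQCR-6.4* pair, and 12.2-fold for the *COX4* pair. The ratio was lowest in CWFP replicate 3 for 7 of the 8 pairs, and highest in CWFP replicate 1 for 7 of the 8. The testis copies made up 0.0563% of the summed level of ubiquitous and testis copies in CWFP replicate 1 and 1.67% in CWFP replicate 3.

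**Figure D3:**
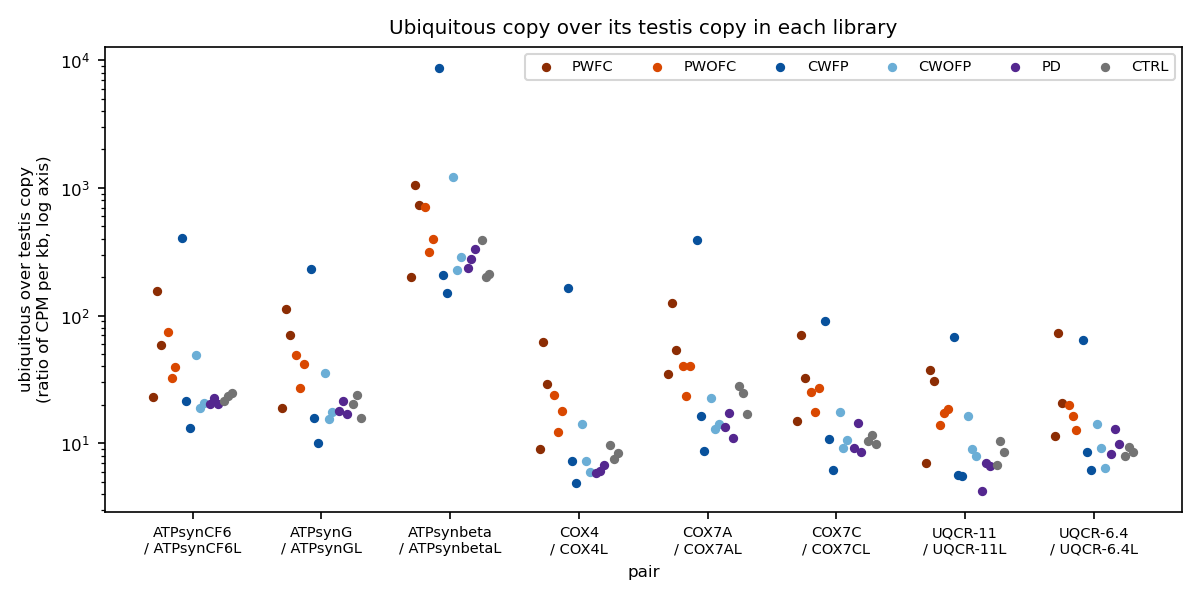
Ratio of the ubiquitous copy over its testis copy, each as CPM per kb of exonic length, for the 8 pairs with counts for both; each point is 1 of 18 libraries, coloured by group, on a log axis. All ratios are above 1, from 4.26 to 8671, and the CWFP libraries span the widest range.

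PD compared with CTRL flies addressed the effect of 7 days of rotenone. No member passed the test, while 36 of the 38 had a positive log2 fold change. The median was 0.34 for the 24 ubiquitous members and 0.54 for the 12 testis copies, against 0.05 for all 12643 genes tested. Related genes moved likewise. All 39 nuclear complex I genes tested were positive, with a median of 0.41. Of 23 subunits of the same pathway with other symbols, 21 were positive and 2 negative, with a median of 0.44. The summed level of the ubiquitous members was 10925, 11373, and 8907 CPM in PD libraries, against 7998, 10552, and 8559.8 CPM in CTRL libraries, so that CTRL replicate 2 lay among the PD libraries. edgeR called 0 of 38 members at an adjusted p under 0.05, with 401 of 12643 genes called (3.17%). At an unadjusted p under 0.05 there were 6 members, and DESeq2 called 4, *COX4L*, *COX6CL*, *COX7AL*, and *COX7AL2*, all higher in PD. Over all genes DESeq2 called 2952 of 12208 (24.2%). Every PD library lay above every CTRL library for 7 members, 1 ubiquitous (*UQCR-C2*, named after its values were seen), 5 testis copies, and *COX7AL2*, where 20.7% of all genes tested did so.

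The highest log2 fold change was that of *COX7AL2*, at 1.24 ± 0.41 (SE, edgeR adjusted p = 0.0742), and the lowest that of *ATPsynbetaL*, at -0.18 ± 0.28 (SE, edgeR adjusted p = 0.659). The abundant testis copies *COX4L*, *COX7AL*, and *COX6CL* had values of 0.80 ± 0.25 (SE, edgeR adjusted p = 0.0679), 0.82 ± 0.22 (SE, edgeR adjusted p = 0.0561), and 0.74 ± 0.20 (SE, edgeR adjusted p = 0.0569). *ATPsynGL* and *COX6AL* had log2 fold changes of 0.58 and 0.51, and *COX7CL* and *ATPsynCF6L* of 0.46 and 0.41. In the head of ATP synthase *ATPsynbeta* had 1721, 1662, and 1714 CPM in PD libraries, against 1677, 1682, and 1721 CPM in CTRL libraries, and the log2 fold change was 0.00 ± 0.14 (SE, edgeR adjusted p = 0.986). The testis markers had a median log2 fold change of 0.77 in this comparison, where edgeR called 2 of 20 and DESeq2 14, all higher. The sum of the accessory gland markers went the other way, with 352 to 489 CPM in PD and 528 to 666 CPM in CTRL. Of 11 tested, 7 were negative and 4 positive, and edgeR called 1 and DESeq2 3, all lower. Muscle, where mitochondria are abundant, had summed markers of 5565 to 6898 CPM in PD and 3824 to 4298 CPM in CTRL, with 3 of 18 called higher by edgeR and 14 by DESeq2, and yolk markers had 6287 to 7290.2 CPM in PD and 14892 to 24937 CPM in CTRL, with 3 of 3 called lower. Of the ovary germline markers 4 of 9 were called lower, and of the eggshell markers 4 of 10. The part of these tissues in the members' values was not tested. The medians moved with single libraries too, to 0.21 for the ubiquitous members and 0.35 for the testis copies without CTRL replicate 1 and to 0.51 and 0.83 without CTRL replicate 2. CTRL replicate 2 decided the count: without it 22 of 38 members were called, all higher in PD, together with 5361 of 12806 genes (41.9%).

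Transcript length moved with this comparison too. Genes with a median transcript under 600 bases had a median log2 fold change of 0.42 and those of 3000 bases or more had -0.23. Of the ubiquitous members with counts or without, 20 of 25 are under 1000 bases, and their median transcript length was 650 bases, against 1746 bases over 11839 genes. Within a library, the difference between the median deviation of genes under 1000 bases and of genes of 3000 bases or more was 0.67, 0.74, and 0.12 in PD and -0.39, 0.63, and -0.18 in CTRL, on the log2 scale. With a curve over transcript length of each library taken as an offset, a setting chosen after seeing the data, the median was 0.05 for the ubiquitous members and 0.16 for the testis copies. *COX4L*, *COX7AL2*, and *UQCR-C2* were then called, all higher in PD, with 29.5% of genes called.

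PWOFC compared with PD flies addressed what followed in the week after rotenone, together with age. Of the 38 members, 26 fell in PWOFC and none rose. They were 13 of 24 ubiquitous members, 11 of 12 testis copies, and both copies ending in L and a digit. All but *ATPsynbetaL* of the testis copies fell by more than 1 on the log2 scale, while no ubiquitous member did. The median log2 fold change was -1.55 for the testis copies and -0.39 for the ubiquitous members, against -0.09 for all 12436 genes. This comparison called 64.1% of genes in either direction and 34% as lower, and 23.3% as lower with a log2 fold change above 1 in size, which 12 of the 38 members had. Every PWOFC library lay below every PD library for 26 members, where 36.9% of genes did so.

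*COX6CL* fell most, with 3.19, 4.67, and 3.18 CPM in PWOFC libraries, against 17.2, 18.6, and 13.3 CPM in PD libraries, and a log2 fold change of -2.16 ± 0.24 (SE, edgeR adjusted p = 0.000134). The next was *COX7CL*, at -1.83 ± 0.27 (SE, edgeR adjusted p = 0.000364). *COX4L*, *COX7AL*, and *COX6AL* fell by 1.70, 1.47, and 1.38 on the log2 scale. The complex III copies *UQCR-11L* and *UQCR-14L* had log2 fold changes of -1.78 ± 0.32 (SE, edgeR adjusted p = 0.000804) and -1.68 ± 0.34 (SE, edgeR adjusted p = 0.00162). The ATP synthase copies *ATPsynGL* and *ATPsynCF6L* had -1.57 ± 0.27 (SE, edgeR adjusted p = 0.000645) and -1.53 ± 0.28 (SE, edgeR adjusted p = 0.000919). *ATPsynbetaL* did not pass the test, at -0.41 ± 0.29 (SE, edgeR adjusted p = 0.222). Testis markers moved with the copies, with 17 of 20 lower in PWOFC and a median log2 fold change of -1.59, and their part in the copies' fall was not tested. Of 11 accessory gland markers, 3 were called lower and 3 higher.

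The ubiquitous members that fell did so by less, from -0.35 to -0.78 (*UQCR-6.4*, named after its values were seen) on the log2 scale. These were 3 of 5 complex III, 6 of 8 complex IV, and 4 of 11 ATP synthase members. In complex III, *UQCR-Q* had 113, 106, and 116 CPM in PWOFC libraries, against 189, 214, and 155 CPM in PD libraries, a log2 fold change of -0.74 ± 0.15 (SE, edgeR adjusted p = 0.00159). *UQCR-C1* had 629, 574, and 672 CPM in PWOFC libraries, against 868, 842, and 674 CPM in PD libraries, and its change of -0.35 ± 0.14 (SE, edgeR adjusted p = 0.0479) was the smallest called. In complex IV, *COX5A* had 341, 304, and 369 CPM in PWOFC libraries, against 491, 480.5, and 387 CPM in PD libraries, a log2 fold change of -0.43 ± 0.14 (SE, edgeR adjusted p = 0.0219), and *COX6B* had -0.45 ± 0.14 (SE, edgeR adjusted p = 0.0148). Every PWOFC library lay below every PD library for both. In ATP synthase, *ATPsynF* and *ATPsynCF6* had -0.44 ± 0.14 (SE, edgeR adjusted p = 0.017) and -0.48 ± 0.16 (SE, edgeR adjusted p = 0.0183). *ATPsynbeta* went the other way without passing the test, with 2124, 1838, and 1984 CPM in PWOFC libraries, against 1721, 1662, and 1714 CPM in PD libraries and a log2 fold change of 0.22 ± 0.12 (SE, edgeR adjusted p = 0.137), although its libraries did not overlap. Every PWOFC library lay above every PD library for 34.5% of genes. *ATPsynC*, *ATPsyngamma*, and *ATPsyndelta* had log2 fold changes of 0.14, -0.05, and -0.12, and were not called. Yolk markers had 22729 to 28519 CPM in PWOFC and 6287 to 7290.2 CPM in PD, with 3 of 3 higher, and muscle markers 3949 to 4477 CPM in PWOFC and 5565 to 6898 CPM in PD, with 14 of 17 lower and 1 higher. All 10 neuron markers and 6 of 9 gut markers were lower, and 7 of 10 eggshell and 8 of 9 ovary germline markers higher, and the part of these tissues was not tested.

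The fall of the ubiquitous members depended on the setting. Upper quartile scaling called 21 of them lower, while the length offset, chosen after seeing the data, called none lower. The part of transcript length in the fall was not tested. All genes tested had a median log2 fold change of -0.96 under 600 bases, -0.57 from 600 to 1000 bases, -0.12 from 1000 to 2000 bases, 0.22 from 2000 to 3000 bases, and 0.40 from 3000 bases. The ubiquitous members had medians of -0.63 (10 members), -0.34 (9 members), and -0.20 (4 members) in the first 3 of these classes, the first 2 of them above and the last below that of all genes of the class. With the length offset, 10 ubiquitous members rose and none fell, with a median of 0.29, and 9 of 12 testis copies still fell, with a median of -0.74. That fit called 65.9% of genes. The plot of fold change against length places most ubiquitous members near or above the line of all genes and the testis copies below it. With all 18 libraries in the fit, 12 members were called, all lower, of which 10 were ubiquitous and 2 were testis copies. In that setting 37.1% of genes were called.

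**Figure D4:**
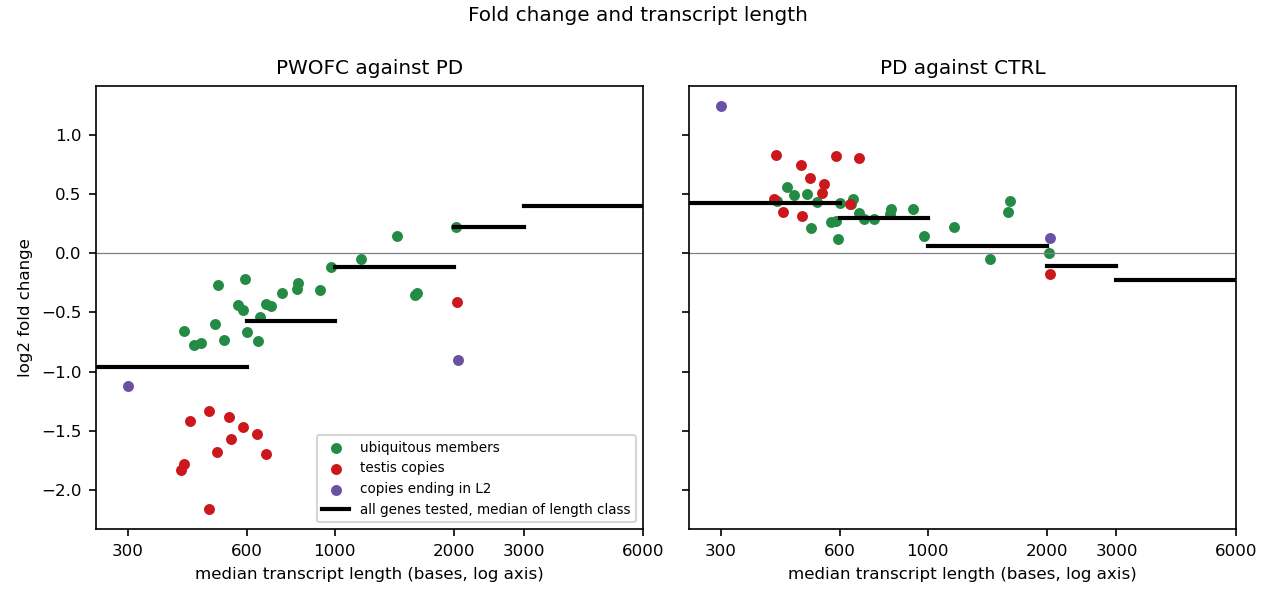
Log2 fold change of each member (points) against its median transcript length (log axis) in PWOFC against PD (left) and PD against CTRL (right); black lines are the medians of all genes tested in 5 length classes. In PWOFC against PD the line climbs from -0.96 to 0.40 and the testis copies lie below it.

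**Figure D5:**
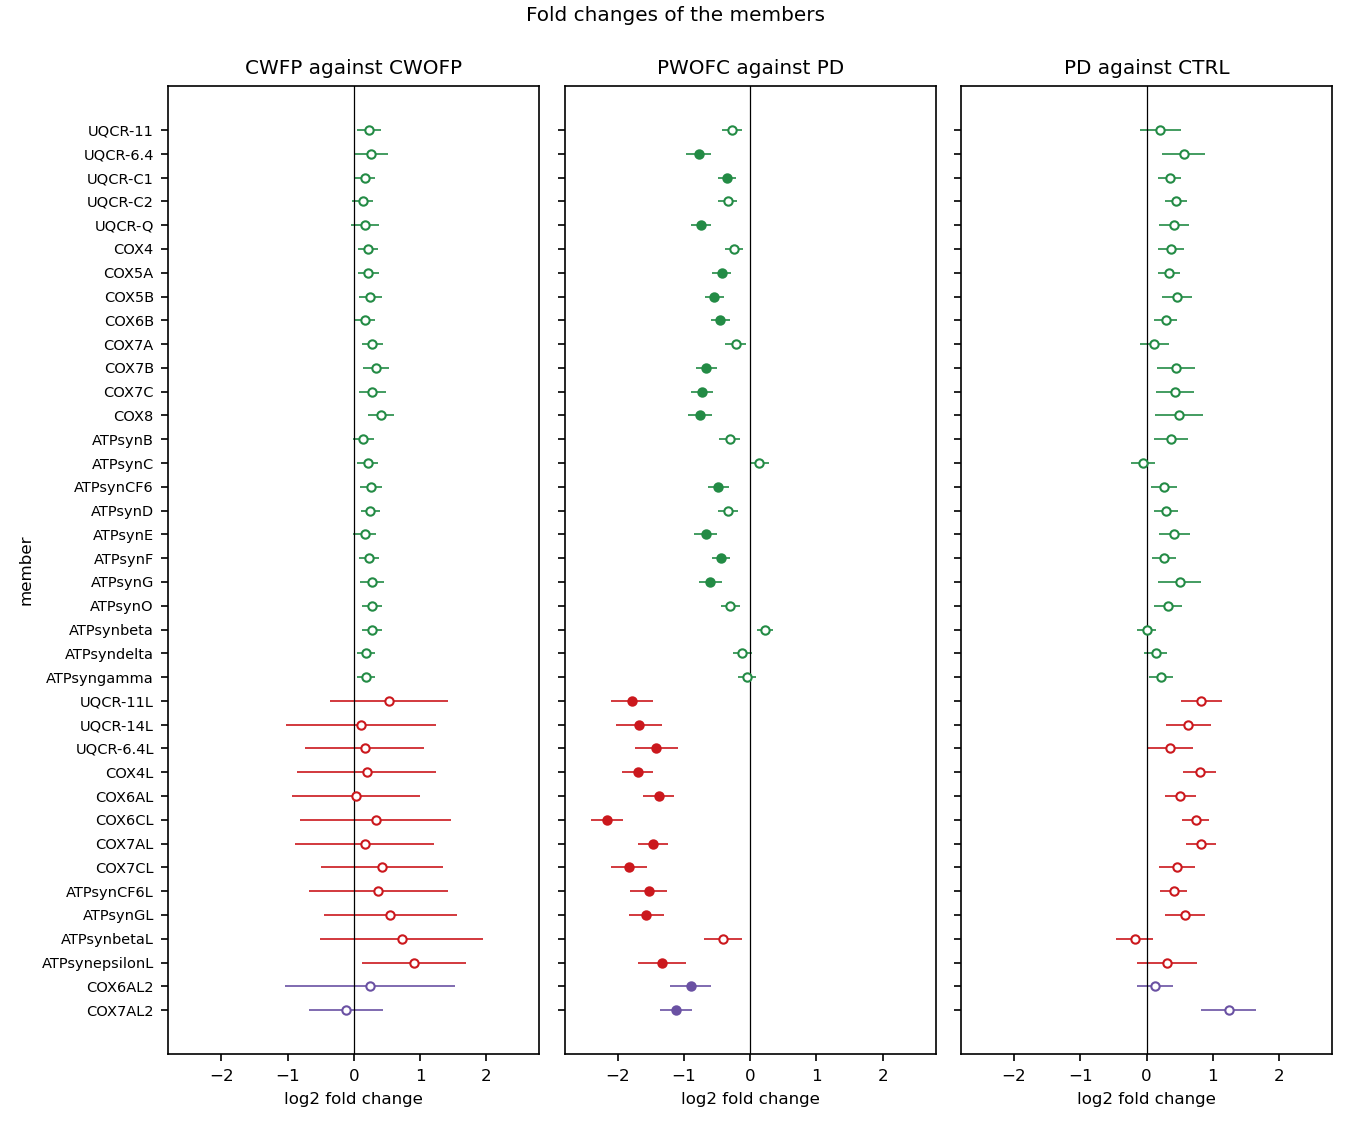
Log2 fold change of the 38 members with counts in CWFP against CWOFP, PWOFC against PD, and PD against CTRL, from edgeR; bars are standard errors (n = 3 libraries a group), filled points have an adjusted p under 0.05. Green marks ubiquitous members, red testis copies, and purple the copies ending in L2. Filled points appear in PWOFC against PD alone, 26 of 38, and the bars of the testis copies are widest in CWFP against CWOFP.

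The effect of rotenone at day 14 (PWOFC over CWOFP) was set against that at day 7 (PD over CTRL) in one model. That difference equals PWOFC over PD minus CWOFP over CTRL, the change over the same 7 days in flies without rotenone. The difference of the effects passed the test for 9 of 38 members, lower at day 14 for 8 testis copies and higher for *ATPsynbeta*, where 37.1% of genes passed, 13.8% as lower and 23.4% as higher. The median was -1.5 for the testis copies and -0.18 for the ubiquitous members, against -0.01 for all genes. The difference was -1.84 ± 0.56 (SE, edgeR adjusted p = 0.0255) for *UQCR-14L*, -1.83 ± 0.40 (SE, edgeR adjusted p = 0.0102) for *COX6CL*, and -1.72 ± 0.38 (SE, edgeR adjusted p = 0.0106) for *COX7AL*. *COX4L*, *UQCR-11L*, and *COX7CL* had -1.65, -1.55, and -1.51, and *COX6AL* and *ATPsynGL* had -1.44 and -1.40. *ATPsynCF6L* and *ATPsynbetaL* did not pass, at -1.13 ± 0.47 (SE, edgeR adjusted p = 0.0701) and 0.41 ± 0.67 (SE, edgeR adjusted p = 0.633). For *ATPsynbeta* the difference was 0.52 ± 0.16 (SE, edgeR adjusted p = 0.0282). *ATPsynbeta* had 1520.0, 2278, and 2134 CPM in the PWFC libraries, 2124, 1838, and 1984 CPM in PWOFC, 1885, 1528, and 1844 CPM in CWFP, 1440.1, 1379, and 1292 CPM in CWOFP, 1721, 1662, and 1714 CPM in PD, and 1677, 1682, and 1721 CPM in CTRL. It was thus lowest in the CWOFP libraries, each of which lay below every library of the other groups. Of the testis markers, 12 of 20 were lower in the same test and none higher, and 9 of 18 muscle markers were lower. Ovary germline markers were higher for 8 of 9 and lower for 1, eggshell markers higher for 7 of 10, and yolk markers higher for 3 of 3, and the part of these tissues was not tested.

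These differences depended on the libraries in the fit. With all 18 libraries none of the 38 was called, and without 1 library the count lay between 3 (without PWOFC replicate 1) and 19 (without CTRL replicate 2). The shares of all genes called in these fits were 2.67%, 18.1%, and 46.0%. The count of members was 4 without CWOFP replicate 3, 4 without PD replicate 1, and 5 without CTRL replicate 3, where 26.9%, 12.7%, and 19.4% of genes were called. Over the 12 fits that leave out 1 library, *COX6CL*, *COX7AL*, and *COX6AL* were called in all 12, *COX4L* in 11, *UQCR-14L* in 8, *COX7CL* in 7, *UQCR-11L* and *ATPsynbeta* in 5, and *ATPsynGL* in 4. *ATPsynbeta* was also lost with the replicate block (edgeR adjusted p = 0.0517), upper quartile scaling (0.523), all 18 libraries (0.101), the genes of the mitochondrial genome left out (0.178), and the length offset (0.0519). With the length offset the medians were 0.39 for the ubiquitous members and -0.61 for the testis copies, and 6 ubiquitous members were higher at day 14 and 3 testis copies lower, with 40.9% of genes called.

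On day 14 itself, PWOFC compared with CWOFP flies gave no call among the members. edgeR called 5 of 12297 genes (0.0407%) and 0 of 38 members, with 10 at an unadjusted p under 0.05, and DESeq2 called 6, of which 1 was higher. Over all genes DESeq2 called 1278 of 12421 (10.3%). The median log2 fold change was -1.0 for the testis copies and 0.02 for the ubiquitous members, against -0.05 for all genes. The lowest value was that of *UQCR-14L*, at -1.33 ± 0.41 (SE, edgeR adjusted p = 0.141), and the highest that of *ATPsynbeta*, at 0.40 ± 0.14 (SE, edgeR adjusted p = 0.154). *COX6CL*, *COX7CL*, and *COX6AL* had log2 fold changes of -1.22, -1.17, and -1.05, and *COX7AL*, *COX4L*, and *ATPsynGL* of -1.02, -0.97, and -0.95. *ATPsynCF6L* and *ATPsynbetaL* had -0.84 and 0.11. Every PWOFC library lay below every CWOFP library for 4 testis copies, *COX6AL*, *COX7CL*, *UQCR-14L*, and *UQCR-6.4L*, where 10.1% of genes did so, and above for 10 ubiquitous members, where 28.2% of genes did so. Testis markers had a median of -0.83, and edgeR called 0 of 20, with 10 at an unadjusted p under 0.05, and DESeq2 6, all lower. Their part was not tested.

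CWFP compared with CWOFP flies addressed the effect of FMT from rotenone-fed donors on control flies. No member passed the test. All 24 ubiquitous members had a positive log2 fold change, from 0.13 to 0.41, with a median of 0.23 against -0.01 for all genes. Their summed level was 9708, 9825, and 9377 CPM in CWFP libraries, against 8173, 7412, and 7904 CPM in CWOFP libraries, with no overlap. For 19 of the 24, every CWFP library lay above every CWOFP library, where 4.73% of genes did so. These were 10 of 11 ATP synthase members, 7 of 8 complex IV members, and 2 of 5 complex III members. The rise was not particular to the members. All 39 nuclear complex I genes tested were positive, with a median of 0.21, and 19 of them had no overlap in the same direction. Of 23 subunits of the same pathway with other symbols, 18 were positive and 5 negative, with a median of 0.13. edgeR nevertheless called 0 of 12473 genes (0%) and 0 of 38 members, and none of the members had an unadjusted p under 0.05. DESeq2 called 0 members, with 49 of 15821 genes called (0.31%). The largest value of a ubiquitous member was that of *COX8*, a small complex IV subunit named here after its values were seen, with 125, 153, and 134 CPM in CWFP libraries, against 110.4, 82.9, and 101 CPM in CWOFP libraries, at 0.41 ± 0.19 (SE, edgeR adjusted p = 0.999906). Gut markers moved the same way, with 5573 to 8833 CPM in CWFP and 2914 to 3850.4 CPM in CWOFP and a positive log2 fold change for 9 of 9, of which edgeR called 0 and DESeq2 2. Muscle and neuron markers had medians of -0.63 and -0.67, positive for 0 of 17 and 0 of 10, and neither edgeR nor DESeq2 called any of them. The part of these tissues was not tested.

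For the testis copies this comparison rests on CWFP replicate 1. The median log2 fold change was 0.35, and 0.91 without that library, while it was -0.26 without CWFP replicate 3. The standard errors reached 1.28 on the log2 scale. *ATPsynepsilonL* had the highest value, 0.91 ± 0.78 (SE, edgeR adjusted p = 0.999906), and *COX7AL2* the lowest, -0.12 ± 0.55 (SE, edgeR adjusted p = 0.999906). *COX4L* and *COX7AL* had 0.19 ± 1.0 and 0.16 ± 1.1 (SE), and *COX6CL* and *COX6AL* had 0.33 ± 1.1 and 0.03 ± 0.96 (SE). *ATPsynCF6L*, *ATPsynGL*, *ATPsynbetaL*, and *COX7CL* had 0.37, 0.55, 0.72, and 0.42. A change of the testis copies was not detected.

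PWFC compared with PWOFC flies addressed the effect of FMT from control donors after rotenone. No member passed the test here either. The ubiquitous members had a median log2 fold change of 0.14, with 22 of 24 positive, against -0.04 for all genes, and the testis copies had -0.20. The summed level was 9789, 10527, and 10625 CPM in PWFC libraries, against 9635, 8748, and 9613 CPM in PWOFC libraries, for the ubiquitous members. For 8 of them every PWFC library lay above every PWOFC library, where 6.5% of genes did so. edgeR called 0 of 12026 genes (0%) and 0 of 38 members, with 1 at an unadjusted p under 0.05. DESeq2 called 0 members, with 119 of 12986 genes called (0.916%). The highest value was that of *COX6B*, at 0.40 ± 0.22 (SE, edgeR adjusted p = 0.993), and the lowest that of *COX7AL2*, at -0.57 ± 0.31 (SE, edgeR adjusted p = 0.993). *COX6B* had 454, 275, and 291 CPM in the PWFC libraries, 270.2, 237, and 272 CPM in PWOFC, 264, 295, and 276 CPM in CWFP, 252, 225, and 227 CPM in CWOFP, 371, 387, and 304 CPM in PD, and 294, 334, and 241 CPM in CTRL. PWFC replicate 1 was the highest of all libraries for *COX6B*, and without it the log2 fold change was 0.16. *COX4L*, *COX7AL*, *COX6CL*, and *COX6AL* had log2 fold changes of -0.18, -0.33, 0.37, and -0.22, and *ATPsynCF6L*, *ATPsynGL*, *ATPsynbetaL*, and *COX7CL* of 0.28, -0.42, -0.13, and -0.17. Without PWFC replicate 1 the median of the testis copies was -0.83, and without PWFC replicate 2 it was 0.20. Gut markers had 11913 to 14443 CPM in PWFC and 5664 to 7116 CPM in PWOFC and a positive log2 fold change for 9 of 9, of which edgeR called 0 and DESeq2 4. Muscle and neuron markers were positive for 17 of 17 and 10 of 10, edgeR called none, and DESeq2 called 1 and 0. The part of these tissues was not tested.

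The effect of FMT after rotenone (PWFC over PWOFC) minus that without it (CWFP over CWOFP) passed the edgeR test for 0 of 12707 genes (0%) and 0 of 38 members, none had an unadjusted p under 0.05, and DESeq2 called 0 members. The extremes were 0.27 ± 0.29 (SE, edgeR adjusted p = 0.999989) for *COX6B* and -0.93 ± 1.1 (SE, edgeR adjusted p = 0.999989) for *UQCR-11L*. The 8 most abundant testis copies had differences from -0.91 (*ATPsynGL*) to 0.11 (*COX6CL*), on standard errors of 1.15 to 1.47 on the log2 scale. No difference was detected for these copies. Without PWFC replicate 1 the value of *COX6B* was -0.04.

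CWOFP compared with CTRL flies addressed 7 more days of age without rotenone or FMT. CTRL flies were on medium with DMSO and CWOFP flies on plain medium for the last 7 days, so age and the end of DMSO cannot be told apart. The members had a median log2 fold change of -0.14 in both the ubiquitous and the testis copies, against 0.00 for all genes, and 29 of 38 were negative. Without CTRL replicate 2 the medians were 0.02 and 0.10, without CTRL replicate 1 -0.26 and -0.34, and without CWOFP replicate 1 -0.21 and 0.09, for the ubiquitous and the testis copies in turn. edgeR called 252 of 12437 genes (2.03%) and 0 of 38 members, and none of the members had an unadjusted p under 0.05. DESeq2 called 0 members, with 682 of 13380 genes called (5.1%). Every CWOFP library lay below every CTRL library for 4 ubiquitous members, *ATPsynD*, *ATPsynbeta*, *COX5A*, and *COX7A*, where 13.6% of genes did so. The highest value was that of *COX7AL2*, at 0.34 ± 0.46 (SE, edgeR adjusted p = 0.907), and the lowest that of *ATPsynbetaL*, at -0.77 ± 0.55 (SE, edgeR adjusted p = 0.728). *COX7AL*, *COX6AL*, and *COX4L* had 0.30, 0.12, and 0.01, while *ATPsynGL*, *COX7CL*, *COX6CL*, and *ATPsynCF6L* had -0.11, -0.26, -0.27, and -0.35. Gut markers had 2914 to 3850.4 CPM in CWOFP and 10282 to 14650 CPM in CTRL, and edgeR called 5 of 9 lower. It also called 4 of 10 eggshell and 1 of 10 neuron markers lower. No testis, accessory gland, ovary germline, yolk, or muscle marker was called. The part of these tissues was not tested. CWOFP and CTRL serve in other comparisons above, so the values of those comparisons are not independent of the values here.

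Subunits of the same pathway with other symbols gave the background for these members. Of 24 listed genes, 23 were tested. In PWOFC compared with PD 17 fell and 2 rose, with a median log2 fold change of -0.61. Those that rose were *blw*, the alpha subunit of ATP synthase and the partner of *ATPsynbeta* in the catalytic head, at 0.30 ± 0.12 (SE, edgeR adjusted p = 0.0477), and *sesB*, the exchanger of ADP and ATP, at 0.29 ± 0.12 (SE, edgeR adjusted p = 0.0476). The testis copies on this list, *Cyt-c-d*, *SdhBL*, *SdhAL*, and *Cyt-c1L*, fell with -1.57 ± 0.22 (SE, edgeR adjusted p = 0.000286), -1.55 ± 0.25 (SE, edgeR adjusted p = 0.000647), -1.26 ± 0.25 (SE, edgeR adjusted p = 0.00154), and -1.03 ± 0.25 (SE, edgeR adjusted p = 0.00415). Of the subunits made in the mitochondrion, 3 of 5 tested fell, with a median of -0.36. Among the complex I genes, the site where rotenone acts, 34 of 39 tested fell and none rose, with a median of -0.59, where 34% of all genes fell. With the length offset 6 of the 39 fell and 4 rose, with a median of 0.04, and of the 23 genes with other symbols 6 fell and 2 rose.

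In the test of the rotenone effect at day 14 minus day 7, 2 of the 23 genes with other symbols were higher and 4 lower. The higher ones were again *blw*, at 0.51 ± 0.16 (SE, edgeR adjusted p = 0.0298), and *sesB*, at 0.46 ± 0.17 (SE, edgeR adjusted p = 0.0472), beside *ATPsynbeta* among the members. edgeR called none of 39 complex I genes there, DESeq2 called 3, and 8 had an unadjusted p under 0.05. DESeq2 called 38.5% of all genes in that test. In PD compared with CTRL, CWFP compared with CWOFP, PWFC compared with PWOFC, PWOFC compared with CWOFP, and CWOFP compared with CTRL, edgeR called none of either list. In that order, 8, 0, 0, 5, and 1 of the 23 genes had an unadjusted p under 0.05, and DESeq2 called 2, 0, 0, 5, and 0. Of the 39 complex I genes, 9, 0, 0, 4, and 0 had such a p, and DESeq2 called 2, 0, 0, 1, and 0. Over all genes, DESeq2 called 24.2%, 0.31%, 0.916%, 10.3%, and 5.1% in the same order.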

How the data were processed

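The authors trimmed reads with cutadapt (at least 30 nucleotides kept), aligned them to dm6 with HISAT2, and counted them per gene with featureCounts. The deposited values were whole-number counts per gene, not normalized. The labels also name StringTie 1.3.1, DESeq2 1.36.0, and FastQC. The annotation release, strand setting, and handling of reads that match several places are not given in the sources used here. Of 24 samples, 6 were not analysed here, and 0 columns with values of other samples were found. Library totals ran from 17920498 to 29165130 counts.

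Here the counts of both groups of a pair (12 libraries for a difference of effects) were fitted with edgeR 4.0.16 (TMM, filterByExpr, robust quasi-likelihood test) in R 4.3.3, and p-values were adjusted over all genes tested by the Benjamini-Hochberg method, with calls at 0.05. CPM used TMM factors of all 18 libraries, and gene IDs were matched to FlyBase symbols for 17556 of 17611 genes. Positions, exonic lengths, and median transcript lengths came from the Ensembl annotation of the BDGP6 assembly, the dm6 build, which may be a later release than the one the authors used. Alternatives were DESeq2 1.42.0, other normalizations, no filter on low counts, all 18 libraries in the fit, the replicate number as a block, leaving out each library, and a transcript length offset, the last chosen after seeing the data. The fits were tested on simulated data. The labels give replicate numbers and do not say that same-numbered libraries were paired. In CWFP and CWOFP, deviations of same-numbered libraries correlated by 0.517, 0.267, and 0.387. Those of differently numbered libraries correlated by -0.49 to 0.259. Replicates differed by more than sampling noise in all 18 pairs of libraries within groups.

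Members, gene lists, and tests were chosen with earlier results of these data known. Values are given for called members (if more than 8, both extremes of the called members of each complex), for the members with the highest and lowest fold change, and for the 8 most abundant testis copies.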

Additional observations from a re-analysis of the deposited data

Results flagged for a closer look

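The rotenone effect differed between day 14 and day 7 for 9 members by the edgeR test of the difference itself, among 37.1% of all genes. The difference (day 14 minus day 7, log2) was -1.84 for *UQCR-14L*, -1.83 for *COX6CL*, and -1.72 for *COX7AL*. It was -1.65 for *COX4L*, -1.55 for *UQCR-11L*, and -1.51 for *COX7CL*. For *COX6AL* it was -1.44 and for *ATPsynGL* -1.40, and these 8 are testis copies. The ubiquitous *ATPsynbeta* had 0.52. With all 18 libraries in the fit, 0 of these were called, among 2.67% of all genes. Groups of 3 libraries are too small for a test of single outlying libraries.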

How the results depend on the processing

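In PD compared with CTRL, where edgeR called 0 members, DESeq2 called 4, upper quartile scaling 1, no filter on low counts 1, and the length offset 3. The shares of all genes called were 24.2%, 7.79%, 6.73%, and 29.5% in these settings. Leaving out 1 library gave 0 to 22 members, with 22 of them and 41.9% of genes called without CTRL replicate 2. The testis copies' median of 0.54 there was 0.16 with the length offset. In PWOFC compared with CWOFP DESeq2 called 6 in place of 0, with 10.3% of genes called. With the length offset the medians there were 0.39 for the ubiquitous members and -0.57 for the testis copies. In PWOFC compared with PD 12 were called with all 18 libraries (37.1% of genes), in place of 26 (64.1%). Leaving out 1 library gave 20 (58.3%, without PD replicate 2) to 32 (61.2%, without PD replicate 3). The medians there were -0.69 and -1.85 with upper quartile scaling and 0.29 and -0.74 with the length offset, for the ubiquitous members and the testis copies in turn. With the length offset *ATPsynCF6* (0.35), *ATPsynF* (0.40), *ATPsynG*, and *COX7B* turned from called lower to called higher in PWOFC. *COX5A* (0.30), *COX6B* (0.26), and *UQCR-Q* (0.02) lost their call as lower and had a positive value that was not called. *ATPsynE*, *COX5B*, *COX7C*, *COX8*, *UQCR-6.4*, and *UQCR-C1* also lost their call as lower. For the rotenone effect at day 14 minus day 7, 0 were called with all 18 libraries (2.67% of genes), in place of 9 (37.1%). Without 1 library 3 (18.1%) to 19 (46.0%) were called. Leaving out 1 library moved the ubiquitous median between 0.14 and 0.34 in CWFP compared with CWOFP, between 0.07 and 0.20 in PWFC compared with PWOFC, and between -0.02 and 0.14 in PWOFC compared with CWOFP, and the testis copies' median in PWFC compared with PWOFC between -0.83 and 0.20. The cause of these shifts was not tested.

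The replicate number as a block gave 4 calls in PD compared with CTRL (10.6% of genes), 21 in PWOFC compared with PD (57.5%), and 7 for the rotenone difference (32.7%). It gave 0 in the other comparisons. In CWFP compared with CWOFP the fits with and without the block called 0 of 12473 genes, so the count cannot show whether pairing matters. In PD compared with CTRL same-numbered libraries had correlations of -0.295, 0.11, and 0.173. Upper quartile scaling shifted the median of all genes by 0.18 in PD compared with CTRL, by -0.30 in PWOFC compared with PD, and by -0.37 in the rotenone difference. The median of the rotenone difference shifted by -0.21 without the genes of the mitochondrial genome, and with all 18 libraries it shifted by 0.13 in PWOFC compared with CWOFP and by -0.13 in the FMT difference. Of all other values, 1123 of single members and 235 of counts and medians stayed on their side of the threshold or, where there is no test, moved by less than 1 SD or by less than 1.5 times. Of these, 72 and 9 changed sign, none of them called. Apart from these, 88 values of single members fell short of the threshold and 28 passed it. Levels of the scarce copies are limited by depth, since *UQCR-14L* was at 0.0927 CPM in CWFP replicate 1.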
